A study of Mus musculus with 12 samples.

Results

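The 10 genes described here encode receptors that resident macrophages use to take up ligands, debris and dying cells, and the 3 chains of complement C1q. They are Mrc1, Stab1, Msr1, Cd163, Adgre1, Mertk, Axl, C1qa, C1qb and C1qc. They were chosen by symbol, with earlier results of these libraries in view, out of 57010 genes listed. Each symbol had 1 row of counts, and all 10 were among the 15425 genes that passed the filter on low counts and were tested. Because the choice followed earlier results, their values are described without a test.

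Sequencing of polyA RNA covered preosteoclasts grown from bone marrow of female mice, with 12 libraries in 6 conditions of 2 libraries each. LSD1WT mice and LSD1cKO mice were compared, and in the latter the floxed gene for LSD1 (Kdm1a) is deleted by a Cre recombinase under the LysM promoter, which is active in myeloid cells. Marrow came from the mandible and the femur of ligated mice and, without ligature, from the femur, and all cells received M-CSF and RANKL for 2 days. Ligatures, which bring on periodontitis, were in place around maxillary molars for 7 days. The series description gives the age as 2 months, and the paper's methods for the sequencing give 3 months. The labels name 9 mice, 5 LSD1WT and 4 LSD1cKO, and 3 ligated mice (1 LSD1WT and 2 LSD1cKO) gave libraries of both sites. Nothing in the labels says whether the 2 libraries of a condition came from separately handled cultures, so the spread between them may be partly technical.

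Macrophages of tissues clear dying cells and modified molecules throughout life. Scavenger receptors bind sugars, lipoproteins and matrix fragments and carry them into the cell, while the receptor tyrosine kinases Mertk and Axl recognise dying cells through bridging proteins. C1q is assembled from A, B and C chains and starts the classical complement pathway, and it also coats dying cells. Osteoclasts arise from the same myeloid precursors when RANKL acts with M-CSF, and a culture of 2 days holds cells on the way from macrophage to osteoclast. In RNA from a mixed culture, fewer cells of a type and less RNA per cell cannot be told apart.

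Total counts were 21375805 to 32526751 per library. Kdm1a was at 61.2 to 71.3 CPM (reads per gene after scaling every library to one size) in the 6 LSD1WT libraries and at 15.6 to 24.3 CPM in the 6 LSD1cKO libraries, so each library matched its genotype label. The summed level of 20 osteoclast genes was 15009 to 47466 CPM in 10 libraries but 1200 and 1196 CPM in the femur LSD1WT libraries numbered 2, ligated and unligated. Those libraries stand apart from the rest and come from different mice, and values without them stand beside the genotype and list results that rest on them. The deviations of the ligated and unligated library numbered 2 from their group means correlated at 0.78 over all tested genes. Among the other 10 libraries, the osteoclast sum was 32196 and 32093 CPM in mandible LSD1WT against 18842 and 18842 CPM in mandible LSD1cKO. In the femur it was 47466 and 43564 CPM in LSD1WT against 15009 to 34463 CPM in LSD1cKO. The part of this difference in the levels of the 10 genes was not tested. The mandible LSD1WT libraries were nearly alike, with a biological coefficient of variation of 0.0246 against 0.0965 to 0.717 in the other pairs, so their spread need not hold that between mice. Mandible LSD1WT replicate 3 was placed by its title, although its library name points to the femur.

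The sequences before the start of 4 genes are shown, since the C1q chains moved together and Axl did not move with Mrc1. Windows of 250 bases before the transcription start were taken from RefSeq on GRCm38.p6, where 7 of the 10 genes had one. They are printed 5′ to 3′ on the strand of the gene, with matches on either strand to GAGGAA (a core recognised by the myeloid factor PU.1) and TGCTGA (an element bound by MAF factors) in capitals. A match on the opposite strand therefore reads TTCCTC or TCAGCA. The windows are C1qb, chr4:136886201-136886450 (minus strand), C1qc, chr4:136892915-136893164 (minus strand), Mrc1, chr2:14229164-14229413 (plus strand), and Axl, chr7:25788734-25788983 (minus strand).
C1qb: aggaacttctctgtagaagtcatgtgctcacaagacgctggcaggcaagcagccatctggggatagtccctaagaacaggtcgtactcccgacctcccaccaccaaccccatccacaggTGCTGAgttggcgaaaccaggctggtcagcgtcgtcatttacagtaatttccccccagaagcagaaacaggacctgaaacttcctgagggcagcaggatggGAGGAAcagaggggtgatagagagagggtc
C1qc: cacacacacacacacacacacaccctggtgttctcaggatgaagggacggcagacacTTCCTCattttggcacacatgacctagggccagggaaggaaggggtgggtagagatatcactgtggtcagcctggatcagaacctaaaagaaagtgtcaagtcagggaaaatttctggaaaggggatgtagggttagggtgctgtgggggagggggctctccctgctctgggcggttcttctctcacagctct
Mrc1: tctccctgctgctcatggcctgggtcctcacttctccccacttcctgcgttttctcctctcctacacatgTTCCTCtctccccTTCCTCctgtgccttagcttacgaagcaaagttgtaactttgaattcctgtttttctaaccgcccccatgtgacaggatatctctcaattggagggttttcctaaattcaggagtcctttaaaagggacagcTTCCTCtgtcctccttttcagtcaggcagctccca
Axl: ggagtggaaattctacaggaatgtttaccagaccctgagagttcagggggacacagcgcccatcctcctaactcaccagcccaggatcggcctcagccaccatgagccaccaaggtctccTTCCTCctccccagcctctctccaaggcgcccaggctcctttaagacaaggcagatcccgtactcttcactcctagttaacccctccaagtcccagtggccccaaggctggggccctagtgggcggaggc
GAGGAA stood in the windows of 5 of the 7 genes with one (Mrc1, Stab1, Axl, C1qb and C1qc) and in 23.3% of the 32851 windows of all genes. Read along the gene, the matching run began 30 bases before the start in C1qb and Stab1. The runs that match on the opposite strand began 193 bases before the start in C1qc, 130 in Axl and 180, 167 and 35 in Mrc1. TGCTGA stood in the windows of Stab1 and C1qb, at 43 and 131 bases before the start, and in 16.1% of all windows. The AP-1 element TGACTCA was in 0 of the 7 windows and in 4.46% of all windows. These matches describe letters only, and binding was not measured here.

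**Figure D1:**
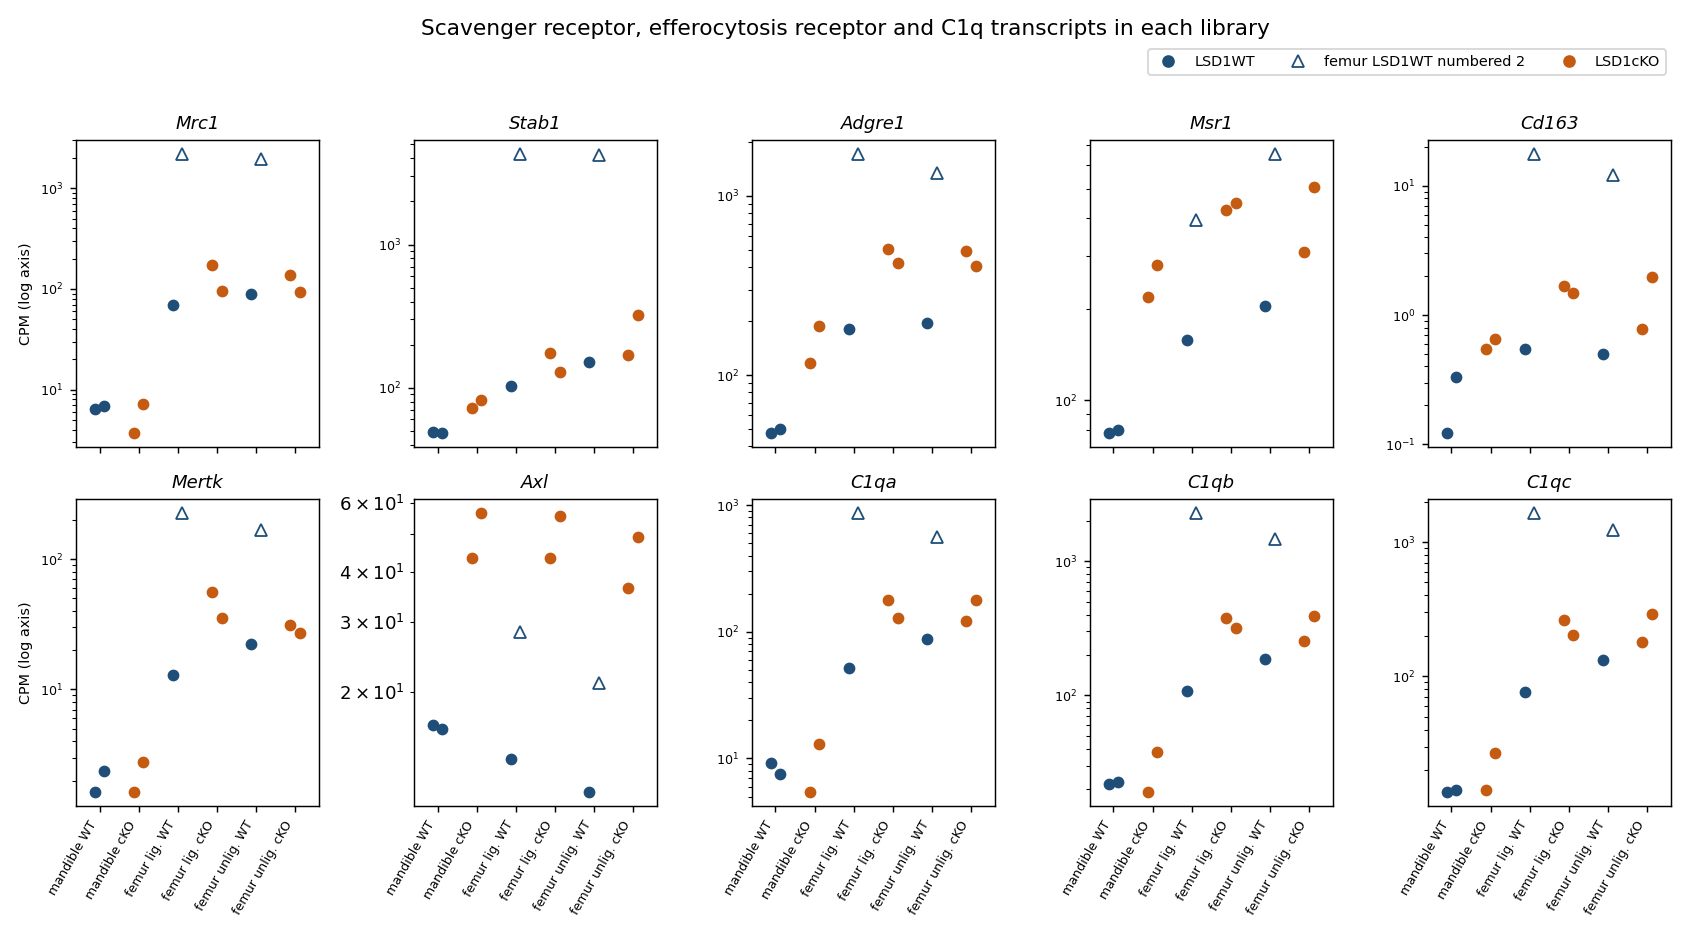
CPM of each gene on a log axis in the 12 libraries, by culture and genotype, with 1 point per library and the femur LSD1WT libraries numbered 2 as open triangles. Mrc1, Stab1, Adgre1, Cd163, Mertk and the C1q chains had their 2 highest values in those libraries, while every LSD1cKO library was above every LSD1WT library for Axl alone.

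Mrc1 (ENSMUSG00000026712) encodes the mannose receptor CD206. It was at 6.45 and 6.83 CPM in mandible LSD1WT against 3.71 and 7.14 CPM in mandible LSD1cKO. In the ligated femur it stood at 69.7 and 2208 CPM in LSD1WT against 172 and 95.4 CPM in LSD1cKO. Without ligature the femur values were 88.6 and 1958 CPM in LSD1WT against 138 and 92.8 CPM in LSD1cKO. All 8 femur libraries were above all 4 mandible libraries, and the 2 highest were the femur LSD1WT libraries numbered 2. The 12 libraries spanned 595-fold, the widest span of the 10 genes.

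Stab1 (ENSMUSG00000042286) encodes stabilin-1, a large scavenger receptor for modified lipoproteins and matrix fragments. It was at 49.0 and 48.4 CPM in mandible LSD1WT against 72.1 and 81.5 CPM in mandible LSD1cKO. The ligated femur libraries were at 102 and 4307 CPM in LSD1WT against 175 and 128 CPM in LSD1cKO, and the unligated ones at 150 and 4237 CPM in LSD1WT against 170 and 324 CPM in LSD1cKO. The LSD1WT femur libraries thus differed 42.2-fold within the ligated pair and 28.2-fold within the unligated pair, and the 4 LSD1cKO femur libraries lay above the lower and far below the higher of them.

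Msr1 (ENSMUSG00000025044) encodes the class A scavenger receptor, which binds oxidised lipoproteins. In the mandible it was at 78.0 and 79.8 CPM in LSD1WT against 220 and 279 CPM in LSD1cKO. The ligated femur held 158 and 394 CPM in LSD1WT and 427 and 450 CPM in LSD1cKO, and the unligated femur held 204 and 653 CPM in LSD1WT and 310 and 505 CPM in LSD1cKO. At the mandible and the ligated femur both LSD1cKO libraries were above both LSD1WT libraries, whereas the unligated femur libraries overlapped.

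Cd163 (ENSMUSG00000008845), the receptor for haemoglobin bound to haptoglobin, was the least abundant of the genes. In the mandible it had 3 and 9 counts in LSD1WT against 16 and 21 in LSD1cKO, that is 0.122 and 0.330 CPM against 0.550 and 0.649 CPM. The summed counts were 12 (95% exact Poisson interval 6.20 to 20.96) and 37 (26.1 to 51.0), intervals that cover counting error only. Ligated femur libraries held 0.550 and 17.8 CPM in LSD1WT against 1.67 and 1.49 CPM in LSD1cKO. The unligated femur libraries were at 0.496 and 12.2 CPM in LSD1WT against 0.784 and 1.98 CPM in LSD1cKO. Outside the femur LSD1WT libraries numbered 2 it stayed under 2 CPM in all libraries.

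Adgre1 (ENSMUSG00000004730) encodes the macrophage surface protein F4/80. It was at 47.6 and 49.8 CPM in mandible LSD1WT against 117 and 187 CPM in mandible LSD1cKO. Ligated femur libraries were at 180 and 1717 CPM in LSD1WT against 505 and 423 CPM in LSD1cKO, and unligated ones at 194 and 1342 CPM in LSD1WT against 489 and 405 CPM in LSD1cKO. The 4 femur LSD1cKO libraries lay within 405 to 505 CPM, above both femur LSD1WT libraries numbered 1 and below both numbered 2.

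Mertk (ENSMUSG00000014361) was low in the mandible, at 1.63 and 2.35 CPM in LSD1WT against 1.65 and 2.78 CPM in LSD1cKO. In the ligated femur it stood at 12.97 and 226 CPM in LSD1WT against 55.5 and 35.6 CPM in LSD1cKO, and in the unligated femur at 22.3 and 167 CPM in LSD1WT against 31.2 and 27.0 CPM in LSD1cKO. The genotypes overlapped in the mandible, and in the femur the LSD1cKO libraries again lay between the LSD1WT libraries.

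Axl (ENSMUSG00000002602) encodes a kinase of the same family as Mertk. In the mandible it was at 16.4 and 16.1 CPM in LSD1WT against 43.4 and 56.5 CPM in LSD1cKO. Ligated femur libraries held 13.5 and 28.2 CPM in LSD1WT and 43.6 and 55.6 CPM in LSD1cKO, and unligated ones 11.1 and 20.996 CPM in LSD1WT and 36.5 and 49.2 CPM in LSD1cKO. The highest LSD1WT library, at 28.2 CPM, was below the lowest LSD1cKO library, at 36.5 CPM, and the mandible and femur ranges overlapped in each genotype.

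The C1q chains followed one another closely. C1qa (ENSMUSG00000036887) was at 9.22 and 7.56 CPM in mandible LSD1WT against 5.43 and 13.04 CPM in mandible LSD1cKO. It was at 51.4 and 868 CPM in ligated and at 87.6 and 562 CPM in unligated femur LSD1WT, against 178 and 129 CPM and 123 and 178 CPM in femur LSD1cKO. C1qb (ENSMUSG00000036905) was the most abundant chain. Its mandible libraries were at 21.7 and 22.8 CPM in LSD1WT against 19.1 and 38.2 CPM in LSD1cKO. In the femur it was at 107 and 2287 CPM in ligated and at 186 and 1470 CPM in unligated LSD1WT, against 377 and 320 CPM and 255 and 388 CPM in LSD1cKO. For each chain the mandible libraries of the genotypes overlapped and every femur library was above every mandible library. C1qc (ENSMUSG00000036896) was at 13.8 and 14.3 CPM in mandible LSD1WT against 14.2 and 26.8 CPM in mandible LSD1cKO. Femur LSD1WT libraries held 76.5 and 1647 CPM with ligature and 133 and 1230 CPM without it, and LSD1cKO libraries held 263 and 203 CPM and 181 and 292 CPM.

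Levels were also divided by the exon length of each gene, so that they could be compared between genes. On this scale C1qb was the highest of the 10 genes in all 8 femur libraries, from 98.7 to 2102 CPM per kb, and in both mandible LSD1WT libraries, at 20.0 and 20.9 CPM per kb. In both mandible LSD1cKO libraries Adgre1 was the highest, at 36.3 and 57.9 CPM per kb, followed by Msr1 at 34.7 and 44.0 CPM per kb. Cd163 was the lowest in all 12 libraries, at 0.0224 to 3.25 CPM per kb. The order of C1qa and C1qc changed between the mandible LSD1WT libraries, at 8.87 against 7.12 and at 7.27 against 7.41 CPM per kb, so these neighbours did not differ beyond their spread.

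The ratios between the chains hardly moved while their levels did. Per kb, C1qa was 0.298 to 0.504 times C1qb and C1qc was 0.354 to 0.471 times C1qb over the 12 libraries. The C1qa ratio spanned 1.69-fold and the C1qc ratio 1.33-fold. The ratio of Axl to Mertk per kb ran from 5.91 to 22.7 in the mandible and from 0.107 to 1.57 in the femur, without overlap of the sites. Stab1 was 4.39 to 12.03 times Mrc1 per kb in the mandible and 0.630 to 2.16 times in the femur.

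**Figure D2:**
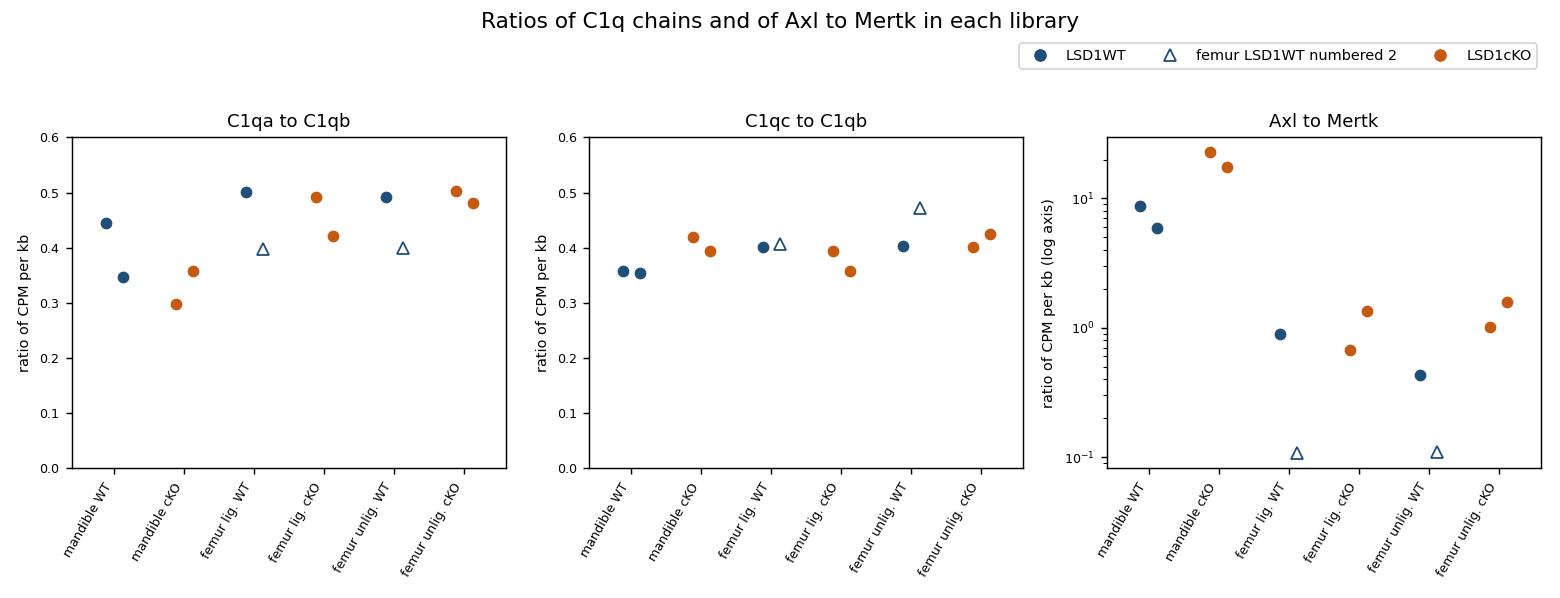
Ratio of CPM per kb of C1qa to C1qb, C1qc to C1qb and Axl to Mertk (log axis) in each of the 12 libraries, by culture and genotype, with the femur LSD1WT libraries numbered 2 as open triangles. The C1q ratios stayed within 0.298 to 0.504, while the ratio of Axl to Mertk was 5.91 or more in every mandible library and 1.57 or less in every femur library.

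The femur LSD1WT libraries numbered 2 held more of each gene than the femur LSD1WT libraries numbered 1. Their mean was 33.8 times as high for Stab1, 28.6 times for Cd163, 26.3 times for Mrc1, 13.7 times for C1qc, 12.8 times for C1qb, 11.1 times for Mertk, 10.3 times for C1qa and 8.18 times for Adgre1. Msr1 and Axl differed less, 2.89-fold and 2.00-fold. In these libraries, beside the low osteoclast genes, the sum of 10 lymphoid genes was 223 and 113 CPM against 9.10 to 47.5 CPM in the other 10. Most of this sum was Ighm, at 216 and 109 CPM, and the T cell genes Cd3d, Cd3e and Cd3g had 0 counts in both. The sum of 12 neutrophil genes was 426 and 164 CPM (133 to 359 in the others), that of 10 monocyte genes 360 and 130 CPM (86.5 to 535) and that of 10 endothelial genes 24.7 and 24.4 CPM (19.7 to 97.5). Within the endothelial sum, Stab2 was highest in these libraries, at 6.62 and 2.57 CPM against 1.18 CPM or less. Vwf, at 11.2 and 11.8 CPM (15.3 to 56.8), and Esam, at 0.411 and 0.0828 CPM (0.582 to 2.25), were lowest in them. Lower than in any other library were the sums of 10 dendritic cell genes, at 14.3 and 6.42 CPM (15.4 to 29.0 in the others), and of 10 erythroid and mast cell genes, at 0.462 and 0.290 CPM (1.57 to 6.80). The difference in the last sum lay in Gata2, at 0.154 and 0.0828 CPM against 1.41 to 6.68 CPM. The other 9 genes of that list stayed under 1 CPM in every library, and Mcpt8 was higher here, at 0.154 and 0.0828 CPM against 0.0438 CPM or less. The sum of 10 stromal genes was 35.2 and 0.870 CPM (1.68 to 61.0). The part of these cells in the levels of the 10 genes was not tested. Kdm1a was at 70.1 and 68.4 CPM in them, and Lyz2, whose promoter drives the Cre, at 35330.1 and 13829 CPM against 1232 to 7579 CPM in the other 10.

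Whether LSD1cKO preosteoclasts differed from LSD1WT preosteoclasts was asked over the 3 cultures, with the culture as a term in the fit. Of all genes tested, 462 were called higher and 82 lower in LSD1cKO at an adjusted p under 0.05 (Benjamini-Hochberg adjustment of edgeR's quasi-likelihood test), or 3.53% of genes. Axl was the 1 gene of the 10 among them. It was also the 1 gene of the 10 whose genotypes did not overlap, which held for 1.98% of all genes in the higher and 0.797% in the lower direction. Its log2 fold change was 1.43 (standard error 0.22) with 6 libraries per genotype, and 1.82 (0.14) without the femur LSD1WT libraries numbered 2. As the genes were chosen from such results, nothing further is read from these counts.

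The other genes had wide errors, and except for Msr1 their direction rested on those libraries. With all 12 libraries, the log2 fold change was -2.31 (standard error 1.22) for Stab1, -2.26 (0.97) for Mrc1, -1.39 (1.06) for Cd163 and -1.04 (0.68) for Mertk. It was -0.99 (0.77) for C1qc, -0.95 (0.72) for C1qb, -0.87 (0.65) for C1qa and -0.10 (0.68) for Adgre1, while Msr1 was at 0.75 (0.38). With the femur LSD1WT libraries numbered 2 left out, all 10 were above 0. Cd163 was then at 1.49 (0.35), Adgre1 at 1.48 (0.15), Msr1 at 1.45 (0.17) and C1qc at 0.96 (0.25). C1qb was at 0.89 (0.27), C1qa at 0.78 (0.30), Mertk at 0.76 (0.31), Stab1 at 0.69 (0.17) and Mrc1 at 0.33 (0.28). The median of the 10 log2 fold changes was -0.97 with all libraries and 0.93 without them, and that of all genes tested with all libraries was -0.06. With 10 libraries left, 3867 of 16008 genes were called in place of 544 (24.2%, with 14.4% higher and 9.75% lower), among them 7 of the 10, all higher, in place of 1. With all libraries DESeq2 called 2 of the 10, beside 1248 of all genes. The genes were chosen from such results, and most had their highest values in the libraries left out, so nothing is read from these counts. The median of all genes without those libraries was 0.02.

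**Figure D3:**
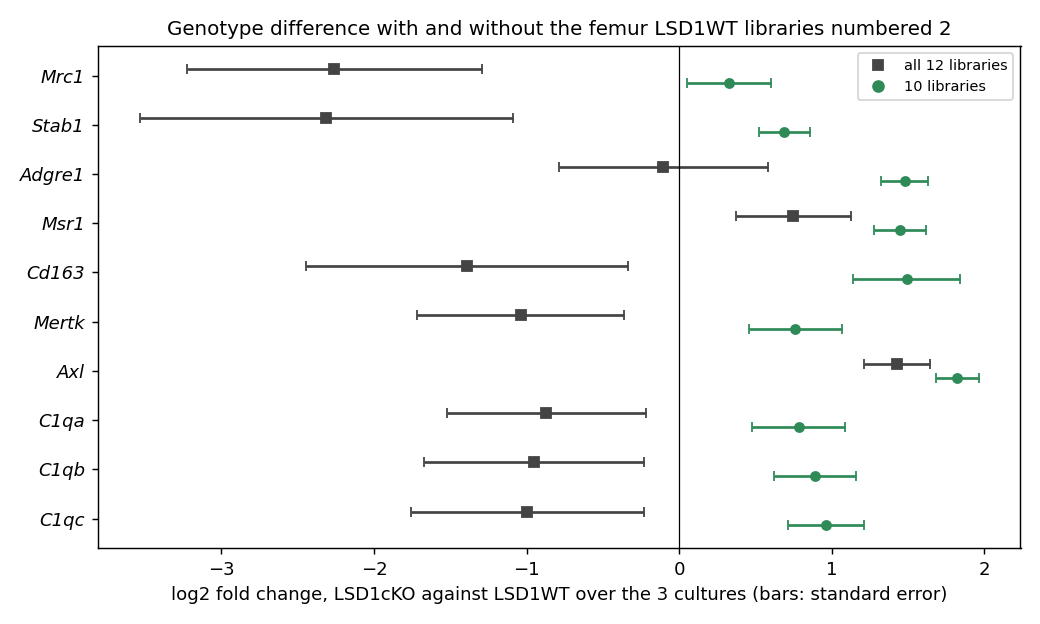
Log2 fold change of LSD1cKO against LSD1WT over the 3 cultures for each gene, with its standard error, from all 12 libraries (squares) and from the 10 without the femur LSD1WT libraries numbered 2 (circles). Axl and Msr1 stayed above 0 in both fits, and the other 8 genes went from below 0 to above it.

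In mandibular preosteoclasts, which do not include the libraries that stand apart, 5 of the 10 genes had both LSD1cKO libraries above both LSD1WT libraries. The same held for 34.1% of all genes tested, and 34.8% were lower without overlap. The 5 genes were Msr1, Adgre1, Axl, Cd163 and Stab1, with mean levels 3.17, 3.13, 3.07, 2.65 and 1.58 times those in LSD1WT. Their log2 fold changes were 1.66 (standard error 0.58), 1.65 (1.02), 1.62 (0.41), 1.37 (1.70) and 0.66 (1.51), with the spread shared by all 12 libraries. The C1q chains, Mertk and Mrc1 overlapped, at log2 fold changes of 0.14 (1.15) for C1qa, 0.36 (1.20) for C1qb, 0.55 (1.23) for C1qc, 0.15 (1.21) for Mertk and -0.29 (1.46) for Mrc1. All 20 genes of the osteoclast list were below 0 here, with a median of -0.70 against 0 for all genes. In this comparison 0 genes of all those tested passed an adjusted p of 0.05 (edgeR's quasi-likelihood test, 744 at an unadjusted p under 0.05). DESeq2 called 146. A fit of the 4 mandible libraries alone called 5434, with a spread taken in part from the nearly alike LSD1WT pair.

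In femoral preosteoclasts of ligated mice, Axl and Msr1 had both LSD1cKO libraries above both LSD1WT libraries, as had 14.8% of all genes, and 19.4% were lower. Their log2 fold changes were 1.25 (standard error 0.41) and 0.67 (0.57). The other 8 genes were below 0, from -3.86 (1.69) for Stab1 and -3.09 (1.56) for Mrc1 to -1.03 (1.01) for Adgre1. The median of the 10 was -1.68, and it was 1.54 without ligated femur LSD1WT replicate 2 and -2.52 without replicate 1. Over all genes, 1 was called (edgeR's quasi-likelihood test, 0.00648% of those tested, 1061 at an unadjusted p under 0.05), and DESeq2 called 214.

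In femoral preosteoclasts of unligated mice, Axl was the 1 gene whose genotypes did not overlap, at a log2 fold change of 1.41 (standard error 0.41), where 9.82% of all genes were higher and 8.57% lower without overlap. Msr1 was at -0.07 (0.57), and the rest ran from -3.15 (1.56) for Mrc1 and -3.15 (1.64) for Stab1 to -0.78 (1.00) for Adgre1. The median was -1.45, and 0.81 without unligated femur LSD1WT replicate 2. Over all genes 0 were called (edgeR's quasi-likelihood test, 763 at an unadjusted p under 0.05), and DESeq2 called 124. Against the femur LSD1WT libraries numbered 1 alone, the mean of the 4 femur LSD1cKO libraries was 1.57 times as high for Mrc1, 1.58 times for Stab1 and 3.75 times for Axl.

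The genotype difference was compared between sites and between ligature states as an interaction, which shares its control libraries with the comparisons above. The mandible value minus the ligated femur value was above 0 for all 10 genes, with a median of 2.29 on the log2 scale, from 0.37 (standard error 0.57) for Axl to 4.52 (2.23) for Stab1. Without ligated femur LSD1WT replicate 2 the median was -0.65. Between ligated and unligated femur the median difference was -0.29, and it was 3.10 without ligated and -2.39 without unligated femur LSD1WT replicate 2. For Axl this difference was -0.16 (0.57). In each interaction 0 genes of all those tested were called (edgeR's quasi-likelihood test), with 149 and 53 at an unadjusted p under 0.05, while DESeq2 called 1 gene for the site and 0 for the ligature.

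Most of these genes were lower in mandibular than in femoral preosteoclasts of ligated mice. In LSD1cKO, 9 of the 10 were lower in both mandible libraries than in both femur libraries, as were 35% of all genes tested, while 35.3% were higher. In LSD1WT it was again 9 of the 10, beside 31.5% lower and 29.2% higher over all genes. Axl was the exception in each genotype. In LSD1cKO the femur mean was 24.7 times the mandible mean for Mrc1, 20.6 times for Mertk, 16.6 times for C1qa, 12.2 times for C1qb and 11.4 times for C1qc. It was 3.04 times for Adgre1, 2.64 times for Cd163, 1.98 times for Stab1, 1.76 times for Msr1 and 0.993 times for Axl. Mrc1, Mertk and the C1q chains thus had the large site ratios, and the ratio of Axl was close to 1.

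The LSD1WT femur library numbered 1 gave a similar order against the mandible LSD1WT mean. Its level was 10.5 times as high for Mrc1, 6.52 times for Mertk, 6.12 times for C1qa, 5.45 times for C1qc, 4.83 times for C1qb and 3.70 times for Adgre1. It was 2.43 times as high for Cd163, 2.098 times for Stab1, 2.01 times for Msr1 and 0.829 times for Axl. In the fit, the LSD1cKO log2 fold changes of mandible against femur were -4.62 (standard error 1.68) for Mrc1, -4.36 (1.32) for Mertk and -4.05 (1.28), -3.61 (1.33) and -3.51 (1.35) for C1qa, C1qb and C1qc. The median of the 10 was -2.56 in LSD1cKO. In LSD1WT it was -5.63, and -2.08 without ligated femur LSD1WT replicate 2.

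**Figure D4:**
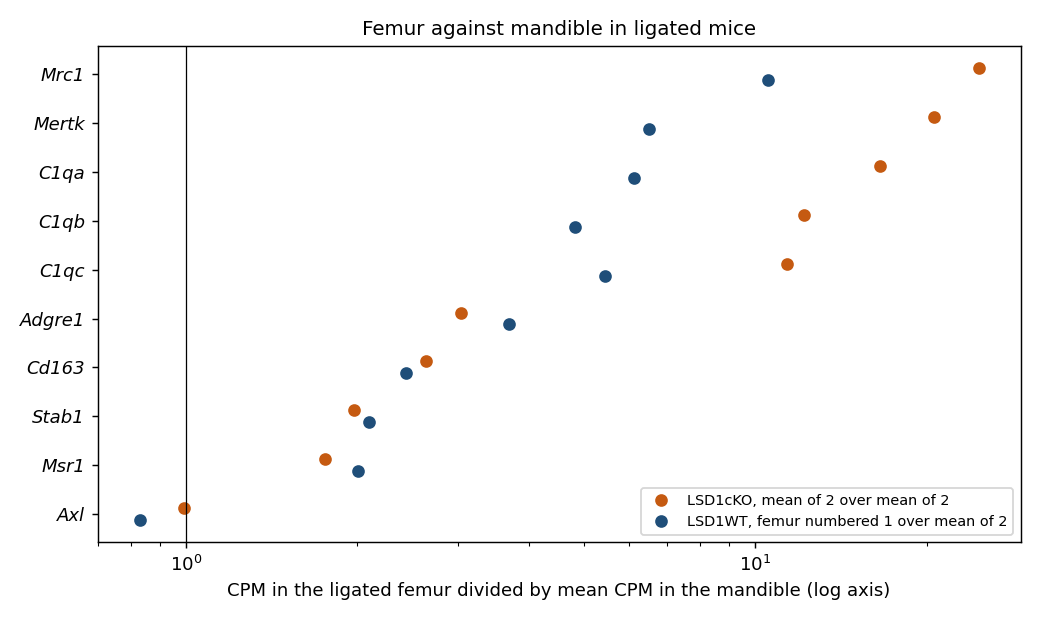
Level in the ligated femur divided by the mean level in the mandible (log axis) for each gene, in LSD1cKO as the mean of 2 libraries over the mean of 2 and in LSD1WT as the femur library numbered 1 over the mean of 2. Mrc1, Mertk and the C1q chains lay between 4.83 and 24.7, Msr1, Stab1, Cd163 and Adgre1 between 1.76 and 3.70, and Axl at 0.829 and 0.993.

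The 4 LSD1cKO libraries behind the site comparison came from 2 mice that each gave both sites. In LSD1WT, 1 mouse gave both the ligated femur and the mandible library numbered 1. With all 12 libraries in the fit 0 genes were called for mandible against ligated femur in either genotype (edgeR's quasi-likelihood test), with 3051 in LSD1WT and 2312 in LSD1cKO at an unadjusted p under 0.05. DESeq2 called 1180 and 822. With the 4 LSD1cKO libraries alone and a replicate block for the mouse, 5530 genes were called, and 6101 without the block. With ligated femur LSD1WT replicate 1 left out, 3759 genes were called in LSD1WT, and with both femur LSD1WT libraries numbered 2 left out it was 144 in LSD1WT and 3466 in LSD1cKO.

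Ligated and unligated femur were compared within each genotype. In LSD1cKO the log2 fold changes of ligated against unligated femur ran from -0.70 (standard error 1.51) for Stab1 to 0.65 (1.14) for Mertk, with a median of 0.11. Mertk, at 55.5 and 35.6 against 31.2 and 27.0 CPM, was the 1 gene without overlap, as were 14% of all genes in the higher direction and 16% in the lower. In LSD1WT the median was 0.34, with 0 genes of the 10 free of overlap (5.25% of all genes were higher and 3.93% lower), and it was -2.91 without ligated and 2.50 without unligated replicate 2. Over all genes 0 were called in either genotype (edgeR's quasi-likelihood test), with 118 in LSD1WT and 148 in LSD1cKO at an unadjusted p under 0.05, and DESeq2 called 2 and 1.

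The 9 genes other than Axl varied together across the libraries, which share their culture, genotype and depth within conditions. Over the 36 pairs of the 9 genes Pearson's r of log2 CPM was 0.69 to 0.9991 with 12 libraries and 0.64 to 0.9988 with the 10 that leave out femur LSD1WT numbered 2. Axl had r of -0.04 to 0.59 with the others over 12 libraries and 0.08 to 0.76 over 10. Its value with Mertk was 0.07 and 0.20. The genes whose levels were most like each of the 10 were sought among all genes tested, as a description over 12 libraries that stand in separate clusters.

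For C1qa, C1qb and C1qc the nearest gene other than the 10 was Maf, a transcription factor of macrophages, with r of 0.990, 0.996 and 0.998, followed by Sros1. Without the femur LSD1WT libraries numbered 2, r with Maf was 0.993, 0.996 and 0.998 over 10 libraries. Maf was at 9.67 to 20.3 CPM in the mandible, at 1317 and 1134 CPM in those libraries and at 69.6 to 188 CPM in the other 6 femur libraries. Maf was also the second nearest gene of Mrc1 (0.988) and of Mertk (0.990). The nearest of Stab1 was the fatty acid and lipoprotein receptor Cd36 (0.993), of Mrc1 Gnpda1 (0.988), of Mertk Leprot (0.991) and of Msr1 Pkib (0.993). For Axl it was Cers5 (0.968) and S100a6 (0.964), and for Cd163 Nfxl1 (0.985). Nearest to the mean of the 10 were Tmem106a, Tlr7, Aatk, Irf8 and Zfp385a, with r of 0.993 to 0.995. Most of these orders rested on the femur LSD1WT libraries numbered 2. Without them Maf was still nearest or second for the C1q chains, but Pkib ranked 4 for Msr1, Cd36 ranked 6 for Stab1, Cers5 ranked 10 for Axl, Gnpda1 ranked 18 for Mrc1, Leprot ranked 21 for Mertk and Nfxl1 ranked 84 for Cd163. For the mean of the 10, the named genes then ranked 10 to 64, with r of 0.982 to 0.991.

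Other genes that act with these receptors and with C1q were counted in 5 lists, which were written with earlier results known. Of 19 tested genes for other complement components, receptors and regulators, 4 rose in LSD1cKO over the 3 cultures and 0 fell, with a median log2 fold change of 0.35 against -0.06 for all genes (3% of all genes rose and 0.532% fell). The 4 were the C1r protease gene C1ra, the C1s protease genes C1s1 and C1s2, and C3. C1r and C1s cleave the next components once C1q has bound, and C3 is the protein on which all complement pathways meet.

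C1ra (ENSMUSG00000055172) was at 0.162 to 2.40 CPM (median 0.471) in the 6 LSD1WT libraries and at 2.61 to 7.95 CPM (median 6.20) in the 6 LSD1cKO libraries, without overlap, and it had under 20 counts in 4 LSD1WT libraries. Its log2 fold change was 2.62 (standard error 0.53, adjusted p = 0.0238, edgeR's quasi-likelihood test). C3 was at 7.74 to 68.9 CPM (median 27.0) in LSD1WT and at 61.3 to 379 CPM (median 254) in LSD1cKO, with a log2 fold change of 2.49 (0.49, adjusted p = 0.0205 in edgeR). Here the lowest LSD1cKO library, mandible replicate 1 at 61.3 CPM, was below the femur LSD1WT libraries numbered 1, at 68.9 and 67.8 CPM. Mandible LSD1cKO replicate 2, at 108 CPM, was above every LSD1WT library. C1s1 had 0 to 4 counts in each LSD1WT library and 11 to 42 in each LSD1cKO library, and C1s2 had 0 to 10 and 14 to 32. Their log2 fold changes were 4.07 (0.66, adjusted p = 0.00837) and 3.28 (0.71, adjusted p = 0.0306) in edgeR, which at such counts depend on the prior count. C1s1 and C1s2 are near copies of each other, as are C1ra and C1rb, and reads could have been split between them. C1ra, C1s2 and C3 lost their call with some single libraries left out, and the list then held 1 to 5 called genes, with 1 without mandible LSD1cKO replicate 2 and 2 without mandible LSD1WT replicate 1 or 3 or ligated femur LSD1cKO replicate 1. Without the femur LSD1WT libraries numbered 2, 9 of 20 tested genes rose and 2 fell, against 14.4% and 9.75% of all genes.

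**Figure D5:**
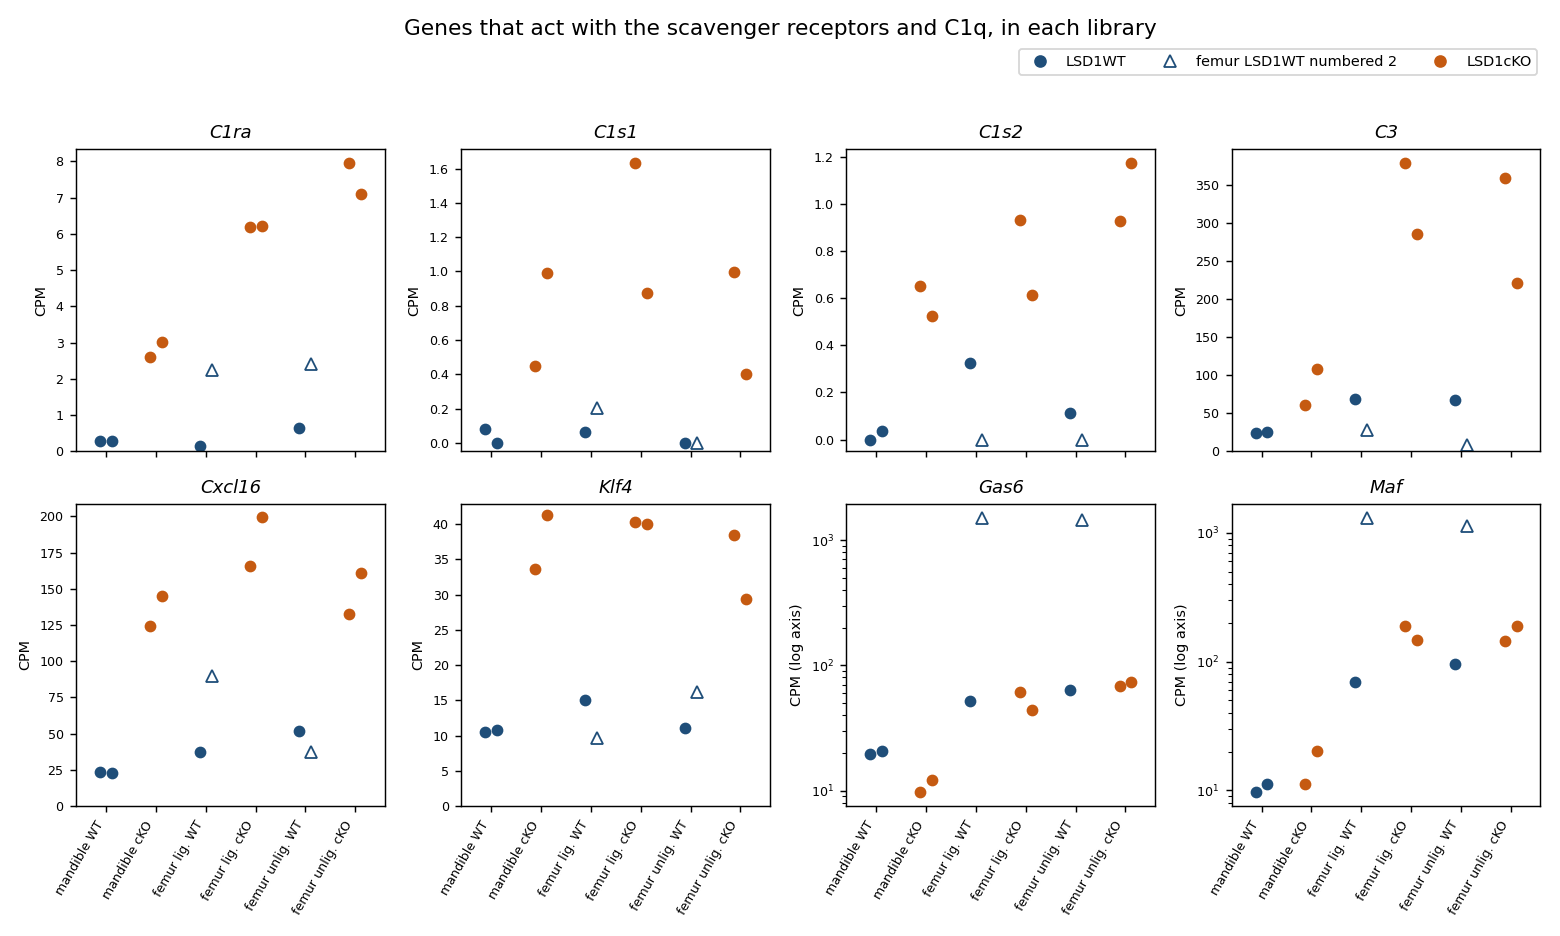
CPM in each of the 12 libraries of C1ra, C1s1, C1s2, C3, Cxcl16 and Klf4 (linear axes) and of Gas6 and Maf (log axes), by culture and genotype, with the femur LSD1WT libraries numbered 2 as open triangles. The first 6 were higher in LSD1cKO in every culture, and Gas6 and Maf were at 1134 to 1514 CPM in the open triangles and at 188 CPM or less elsewhere.

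Of 21 tested genes for other scavenger receptors, 1 rose and 1 fell, against 3% and 0.532% of all genes, with a median log2 fold change of -0.27 against -0.06 for all genes. Without the femur LSD1WT libraries numbered 2, 7 rose and 2 fell, against 14.4% and 9.75% of all genes, and the median was 0.37 against 0.02. Cxcl16, which encodes a membrane chemokine that also binds oxidised lipoproteins, was at 22.9 to 89.9 CPM (median 37.3) in LSD1WT and at 124 to 200 CPM (median 153) in LSD1cKO. Its log2 fold change was 1.92 (standard error 0.24, adjusted p = 0.00308, edgeR's quasi-likelihood test), and the genotypes did not overlap. Scarf2 was at 1.08 to 1.99 CPM in LSD1WT and at 0.494 to 1.39 CPM in LSD1cKO, with a log2 fold change of -1.08 (0.25, adjusted p = 0.0456 in edgeR), and it had under 20 counts in 5 LSD1cKO libraries. Scarf2 lost its call in most alternatives, among them the replicate block, which left 1 gene of the list called.

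Of 25 tested genes for other receptors, bridging proteins and enzymes of dying-cell uptake, 0 rose and 0 fell over the 3 cultures (edgeR's quasi-likelihood test, 5 at an unadjusted p under 0.05, 1 called by DESeq2). The 3 with the smallest p were Gas6, Abca1 and Thbs1. Gas6, the bridging protein that is a ligand of Axl and Mertk, was at 19.5 and 20.9 CPM in mandible LSD1WT against 9.69 and 12.1 CPM in mandible LSD1cKO. In the femur LSD1WT libraries numbered 2 it was at 1514 and 1451 CPM, against 44.2 to 74.0 CPM in the other 6 femur libraries. Its log2 fold change was -2.79 (standard error 0.95, adjusted p = 0.165 in edgeR) with all libraries and -0.28 without those 2. Abca1 and Thbs1 were at -0.64 (0.28) and -1.55 (0.69) with all libraries and at -0.45 and 0.04 without them. Of the list, 11 of 26 tested genes then rose and 2 fell, against 14.4% and 9.75% of all genes. Pros1, another bridging protein, and Tyro3, the third kinase of the family of Axl and Mertk, were looked at after their values were seen. Pros1 was at 5.02 to 8.84 CPM in the mandible. In the femur it was at 76.0 and 76.6 CPM in the LSD1WT libraries numbered 2 and at 10.995 to 29.1 CPM in the others. Its log2 fold change was -0.40 (0.53) with all libraries and 0.90 (0.18, adjusted p = 0.00484 in edgeR) without those numbered 2. Tyro3 had 0 to 6 counts per library and was not tested.

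Of 19 tested macrophage transcription factor genes, 1 rose and 0 fell, against 3% and 0.532% of all genes, and 9 rose and 1 fell without the femur LSD1WT libraries numbered 2, against 14.4% and 9.75%. Klf4, a factor of monocyte and macrophage development, was at 9.60 to 16.1 CPM (median 10.9) in LSD1WT and at 29.3 to 41.3 CPM (median 39.2) in LSD1cKO, without overlap. Its log2 fold change was 1.61 (standard error 0.16, adjusted p = 9.19e-04, edgeR's quasi-likelihood test), and 1.68 without those libraries. Maf was at -1.18 (0.81, adjusted p = 0.539 in edgeR), a value that did not pass the test, and at 0.89 (0.20, adjusted p = 0.00854 in edgeR) without them. Of 22 tested genes for other resident macrophage markers 0 rose and 0 fell (edgeR's quasi-likelihood test, 3 at an unadjusted p under 0.05, 3 called by DESeq2), with a median of -0.59 against -0.06 for all genes. Without the femur LSD1WT libraries numbered 2, 11 rose and 0 fell, against 14.4% and 9.75% of all genes, and the median was 0.91 against 0.02. The 3 with the smallest p were Fcna at 0.48 (0.12, adjusted p = 0.0534 in edgeR), Gpnmb at 0.51 (0.16) and the iron exporter gene Slc40a1 at -3.10 (1.14). Slc40a1 was at 1571 and 849 CPM in the femur LSD1WT libraries numbered 2 and at 3.46 to 51.8 CPM in the other 10. Without the libraries numbered 2 its log2 fold change was -0.27. Fcna was then at 0.42 (0.11, adjusted p = 0.0169 in edgeR) and Gpnmb at 0.70 (0.13, adjusted p = 0.00279 in edgeR).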

How the data were processed

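PolyA RNA of 12 preosteoclast libraries was analysed, grouped by their titles and library names. The deposited values are read counts per Ensembl gene, which the authors left without normalization or a filter. The submitters' processing notes name HISAT2 2.1.0, FastQC, featureCounts, edgeR and the build GRCm39, with no settings. In R 4.3.3, genes were kept with filterByExpr, scaled with TMM and fitted with the quasi-likelihood method of edgeR 4.0.16, two-sided, with Benjamini-Hochberg adjusted p held to 0.05 over 15425 genes. Genotypes over the 3 cultures were compared with the culture as a term, and other comparisons used 1 coefficient per condition. CPM values are counts scaled to a common library size. Log2 CPM for correlations used a prior count of 2. Standard errors are the log2 fold change divided by the root of the F statistic. Exon lengths came from GENCODE vM21, joined by Ensembl identifier.

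The genes, lists and alternatives were chosen with earlier results of these data known. Beside the 10 genes, the text names up to 4 called genes of each list with the largest change or, with none called, the 3 with the smallest p, and for each of the 10 genes the most similar genes. Any further gene was picked with its values in view. The most similar gene of Adgre1 is not reported here. The replicate block with the compared libraries alone was added after seeing the data. The fits were tested on simulated counts. Alternatives were limma 3.58.1 (voom), DESeq2 1.42.0, other scalings and filters, left-out libraries and replicate blocks. Same-numbered mandible and femur LSD1cKO libraries come from the same mouse by the labels, and their deviations correlated at 0.026. By the labels, the ligated femur and mandible LSD1WT libraries numbered 1 also come from the same mouse. Numbers shared between genotypes, or between ligated and unligated mice, name different mice. A count of 0 allows up to 3 counts, and such limits cover counting error only.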

Additional observations from a re-analysis of the deposited data

How the results depend on the processing

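Counts of called genes depended on the fit. Over the 3 cultures 544 genes were called, 1248 with DESeq2, 3867 without the femur LSD1WT libraries numbered 2, 348 with the library of conflicting labels taken as femur, and 298 to 653 with 1 library left out, the lowest without ligated femur LSD1cKO replicate 2. The replicate block left 403. In the mandible the count of 0 became 146 with DESeq2 and 936 without the femur LSD1WT libraries numbered 2. It was 45 with no filter beyond 1 count and 0 to 24 with 1 library left out. The compared libraries alone gave 5434, with a spread taken in part from the nearly alike LSD1WT pair. In the ligated femur the count of 1 became 214 with DESeq2, 9 with RLE scaling, 1497 without the libraries numbered 2, 10 with a filter at a mean of 10 counts, 16 with the conflicting library as femur, 12 with limma voom, 93 with no filter, 0 with the compared libraries alone or with the replicate block, and 0 to 44 with 1 library left out. In the unligated femur the count of 0 became 124, 396 and 24 with DESeq2, without the libraries numbered 2 and with no filter, and 0 to 16 with 1 library left out. DESeq2 called 1 gene for the genotype difference between sites.

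For mandible against ligated femur, the count of 0 in LSD1WT became 1180 with DESeq2, 144 without the libraries numbered 2, 821 with no filter and 0 to 3759 with 1 library left out. In LSD1cKO it became 822, 3466 and 329 under the same settings, 6101 with the compared libraries alone, 5530 with a replicate block in them, and 0 to 688 with 1 library left out. For ligated against unligated femur, the count of 0 in LSD1WT became 2 with DESeq2, 1 with no filter and 0 to 31 with 1 library left out, and in LSD1cKO 1 with DESeq2 and 11 with the replicate block in the compared libraries alone.

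The median log2 fold change of the 10 genes changed sign without the femur LSD1WT libraries numbered 2. It went from -0.97 to 0.93 over the 3 cultures, from -1.68 to 1.63 in the ligated femur (-2.52 to 1.54 with 1 library left out), and from -1.45 to 0.82 in the unligated femur (-2.22 to 0.81). For mandible against ligated femur in LSD1WT it went from -5.63 to -2.05 (-6.54 to -2.08). The interaction with the site went from 2.29 to -0.71 (-0.65 to 3.17 with 1 library left out) and to 0.49 with the replicate block, and that with the ligature ran from -2.39 to 3.10 with 1 library left out. Ligated against unligated femur in LSD1WT ran from -2.91 to 2.50. The log2 fold change of Axl over the 3 cultures stayed within 1.37 to 1.82 under all alternatives.

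Of the complement list 4 genes were called, 11 without the libraries numbered 2 and 1 to 5 with 1 library left out. Of the scavenger list 2 were called, 9 without the libraries numbered 2, 1 with either filter, upper-quartile scaling, limma voom, the replicate block or the conflicting library as femur, and 1 to 2 with 1 library left out. The efferocytosis list went from 0 to 1 with DESeq2, 13 without the libraries numbered 2 and 0 to 2 with 1 library left out, the transcription factor list from 1 to 2 and 10 under the first of these, and the resident list from 0 to 3 and 11, to 1 with a filter at a mean of 10 counts or upper-quartile scaling, and 0 to 1 with 1 library left out. Thbs1 went from -1.55 to 0.044 without the libraries numbered 2. The cause of these shifts was not tested beyond leaving libraries out. Depth limited Cd163, C1ra, C1s1, C1s2, Scarf2 and Tyro3, which had under 20 counts in some libraries.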
